A study of Mus musculus with 9 samples.

Results

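The transcripts of 10 genes of the ATF4 response and of serine synthesis were followed in mouse prostate organoids in which the mitochondrial pyruvate carrier had been blocked by a drug or deleted. The genes were Atf4, Ddit3, Chac1, Trib3, Asns, Phgdh, Psat1, Psph, Shmt2 and Mthfd2, found by symbol among the 52248 named entries of the expression table. The rule uses no measured value, but the list was drawn up with earlier results of these data known. All 10 had a mean of at least 1 CPM (a counts-per-million value, scaled to all reads assigned to genes), as did 12396 genes in all. With the inhibitor UK5099, Psat1 rose 2.29-fold, while Atf4 fell 1.26-fold, Ddit3 2.02-fold, Trib3 2.01-fold and Chac1 1.93-fold. With deletion of Mpc1 only Psat1 passed the test in the fit of all 9 libraries, and it rose 1.47-fold, a call lost on leaving out some single libraries. In the 6 libraries of that comparison fitted alone, Atf4, Ddit3 and Trib3 also passed, with 35.5% of all genes called. For Asns, Phgdh, Psph and Mthfd2 the size or the direction of the change with the drug turned on UK5099 library 1, which held 2.11 to 3.18 times the mean of libraries 2 and 3.

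The organoids were grown from prostate basal cells of mice with floxed Mpc1 alleles, so vehicle, drug and deletion groups all shared that genotype. The 3 vehicle libraries came from organoids with a lentivirus coding for red fluorescent protein, and the 3 UK5099 libraries from organoids with the same virus given 10 µM UK5099 over 1 week. The 3 Mpc1-KO libraries came from organoids with a lentivirus that codes for Cre recombinase and the fluorescent protein. According to the study's methods, fluorescent cells were sorted and passaged, so a group is a pool of transduced cells and not a clone, and Cre came from the virus and not from a cell type's own promoter. The study's methods describe the floxed mice as males on a mixed background of C57BL/6N and C57BL/6J, without giving their age. Nothing in the labels tells separate cultures or animals from repeat libraries, and p-values then measure only the spread between these libraries, which may be technical.

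ATF4 is a leucine zipper transcription factor of the integrated stress response. Stress kinases phosphorylate the translation factor eIF2, which lowers protein synthesis in general but raises translation of the Atf4 message, and ATF4 then switches on amino acid synthesis, transport and tRNA charging. The level of Atf4 RNA is therefore not a measure of ATF4 protein, which was not assayed here. Serine is made from a glycolytic intermediate by PHGDH, PSAT1 and PSPH in turn, and mitochondrial SHMT2 and MTHFD2 pass its carbon into the folate cycle. Cells with mitochondrial defects are known to use this programme.

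ATF4 binds DNA with C/EBP proteins at a composite element whose core is TGATGNAA, so the promoters of the genes were searched for these 8 letters on both strands. Promoters came from RefSeq (build GRCm38.p6, while the reads were aligned to GRCm39), and each window ran from 250 bases before to 50 bases after the start site. All 10 genes were matched, with 11 windows because Psat1 has an additional start site. The letters were found in 3 of the 10 genes, Asns, Chac1 and Trib3, against 4.51% of the 27025 genes in the table and 3.97% of its 32851 promoters. The 10 genes were listed for their place in the ATF4 response or serine synthesis, so a higher share can follow from that choice and is no test. In Asns (chr6:7693180-7693459, minus strand) they lay 23 to 16 bases before the start site, in Chac1 (chr2:119350992-119351271, plus strand) 193 to 186 bases before it on the opposite strand, and in Trib3 (chr2:152344031-152344310, minus strand) at bases 15 to 22 after it on the opposite strand. These are shown, to 30 bases past the start site, because they are the promoters that hold the letters, and Chac1 and Trib3 fell with the drug while Asns did not. Capitals mark the match, read as TTNCATCA where it lies on the opposite strand.
Asns promoter: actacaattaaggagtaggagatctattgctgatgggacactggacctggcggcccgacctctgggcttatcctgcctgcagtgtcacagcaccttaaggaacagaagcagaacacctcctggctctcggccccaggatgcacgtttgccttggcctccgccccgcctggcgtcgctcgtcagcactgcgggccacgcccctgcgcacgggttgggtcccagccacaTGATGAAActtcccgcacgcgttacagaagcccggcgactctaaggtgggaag
Chac1 promoter: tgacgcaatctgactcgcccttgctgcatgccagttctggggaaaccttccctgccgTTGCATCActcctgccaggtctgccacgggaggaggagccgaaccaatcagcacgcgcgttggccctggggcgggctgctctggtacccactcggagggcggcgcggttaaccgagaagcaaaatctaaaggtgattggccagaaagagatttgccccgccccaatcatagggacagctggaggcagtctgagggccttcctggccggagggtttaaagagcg
Trib3 promoter: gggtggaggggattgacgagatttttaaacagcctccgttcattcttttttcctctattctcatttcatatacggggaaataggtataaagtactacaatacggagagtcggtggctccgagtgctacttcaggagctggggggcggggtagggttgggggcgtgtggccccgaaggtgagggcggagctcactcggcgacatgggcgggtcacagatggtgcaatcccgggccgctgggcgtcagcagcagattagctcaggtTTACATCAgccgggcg
A match is a description of the letters and not a site shown to be bound, and the absence of a match in the other 7 genes says only that these letters are not in this window.

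Depth was 16.5 to 28.7 M reads (median 23.9 M), and 3 reads, used as the limit of detection, equal 0.104 to 0.182 CPM. The lowest count of any of the 10 genes was 52 reads, for Chac1 in UK5099 library 3 (3.15 CPM, exact Poisson 95% interval 2.36 to 4.14, covering counting error only). Mpc1 itself stood at 2.36, 2.41 and 2.38 CPM in vehicle, 2.04, 2.47 and 2.30 CPM with UK5099, and 0.522, 0.533 and 0.598 CPM in Mpc1-KO. It was thus lower in every deleted library (log2 fold change -1.46 ± 0.14, limma adjusted p = 6.7e-04), and some transcript remained. Libraries of the UK5099 group differed from each other more than those of the other groups, with a median SD across genes of 0.181 on the log2 scale against 0.088 in vehicle and 0.061 in Mpc1-KO. All 9 libraries expressed the basal markers that the label implies, with the 4 genes (Krt5, Krt14, Krt15 and Trp63) summing to 3985 to 4876 CPM in vehicle, 13382 to 16282 CPM with UK5099 and 4609 to 5118 CPM in Mpc1-KO. All 4 rose with UK5099 by limma. In Mpc1-KO 1 rose and 0 fell, or 2 and 1 in the 6 libraries of that comparison alone. There Krt5 was above every vehicle library (1986 to 2233 against 1557 to 1701 CPM) and Krt14 below every one (1045 to 1127 against 1181 to 1369 CPM). With UK5099 the 6 squamous markers also summed higher, to 1563 to 3584 CPM against 634.0 to 725.7 CPM in vehicle, and the 8 mesenchymal markers lower, to 23.3 to 25.6 CPM against 138 to 205 CPM. Both sums moved the same way in Mpc1-KO without overlapping vehicle, to 887 to 1055 CPM and 49.4 to 65.2 CPM. In vehicle and Mpc1-KO the squamous sum was mostly Sprr1a, at 533 to 607 and 747 to 895 CPM. By limma all 6 squamous markers rose with UK5099. In Mpc1-KO 2 rose and 0 fell, or 4 and 0 in the 6 libraries of that comparison alone. Krt10 measured 1.72 to 2.85 CPM in vehicle and 167 to 562 CPM with UK5099, but 2.18 to 3.36 CPM in Mpc1-KO. The mesenchymal sum was mostly Vim, and of the 4 of these markers tested 3 fell and 1 rose with UK5099, the latter Dcn (1.27, 7.92 and 1.25 CPM in vehicle, 10.3, 11.2 and 14.3 CPM with UK5099), while 2 fell and 0 rose in Mpc1-KO, where Dcn measured 6.43 to 10.3 CPM. Of 5 luminal markers 1 rose and 3 fell with UK5099 by limma, and 0 passed in Mpc1-KO (1 up and 1 down when p was left unadjusted). Prom1 fell the most, from 192 to 218 CPM in vehicle to 54.2 to 65.2 CPM with the drug. Krt8 measured 704 to 884 CPM in vehicle and 453 to 625 CPM with the drug, and Krt18 1273 to 1361 and 830 to 959 CPM. Krt19 measured 2849 to 3084 and 2885 to 3244 CPM, and Cd24a 580 to 632 and 650 to 741 CPM. Over all genes 38.1% were called with UK5099 and 10.7% in Mpc1-KO, or 35.5% in the 6 libraries of the latter comparison alone. Of the immune markers reported here only Cd68, a macrophage marker, was tested. It measured 35.8, 48.9 and 48.8 CPM in vehicle, 11.7, 21.5 and 29.8 CPM with UK5099 and 45.2 to 52.3 CPM in Mpc1-KO, and fell with the drug (log2 fold change -1.15 ± 0.27, limma adjusted p = 0.0078), while Adgre1 was at 0 in all libraries. Endothelial markers summed to at most 1.09 CPM. In bulk RNA, fewer cells of a type and less RNA per cell cannot be told apart, and the part of these marker shifts in the results below was not tested.

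On a scale per length (CPM per kb of the union of all exons, from GENCODE M21), Atf4 was the most abundant of the 10 in vehicle organoids at 132 ± 15.1 (SD, n = 3). Shmt2 followed at 33.4 ± 1.31, then Psat1 at 16.4 ± 1.59 and Asns at 15.8 ± 3.78, whose libraries overlapped. Ddit3 (9.05 ± 0.81), Mthfd2 (8.13 ± 1.21) and Trib3 (7.68 ± 0.30) formed the next step, in which Mthfd2 overlapped both of its neighbours. Chac1 stood lower at 5.18 ± 0.34, and the first and last enzymes of serine synthesis were lowest, Psph at 2.99 ± 0.30 and Phgdh at 1.89 ± 0.54. On this scale the level of the middle enzyme, Psat1, was thus several times that of both enzymes around it. The union is 4.33 kb for Psph, whose longest coding transcript has 1733 bases, so its rank depends on the length used. Windows shared with other genes in either orientation, described below (63.1% for Phgdh and 23.9% for Psph), may also affect these levels.

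**Figure D1:**
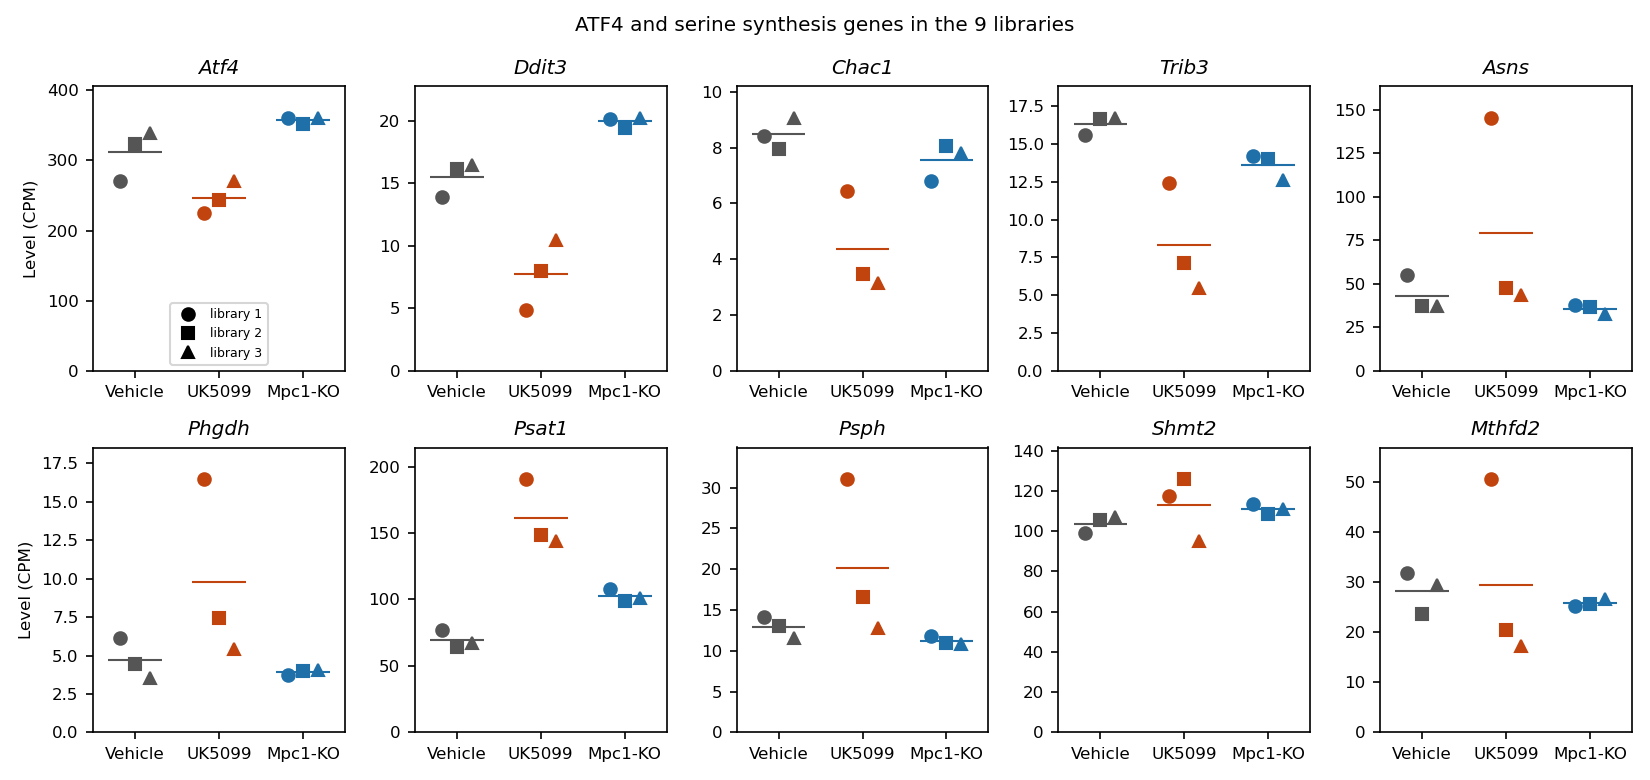
Level (CPM, linear axis from 0) of the 10 genes in each library of vehicle, UK5099 and Mpc1-KO organoids, with libraries 1, 2 and 3 as circles, squares and triangles and a line at the mean of each group. Psat1 is above vehicle in every UK5099 and Mpc1-KO library, Ddit3, Chac1 and Trib3 are below vehicle in every UK5099 library, and UK5099 library 1 is far above libraries 2 and 3 for Asns, Phgdh, Psph and Mthfd2.

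The first comparison asked how the transcripts differ when the carrier is inhibited. Of the 10 genes, 1 rose and 4 fell with UK5099 at an adjusted p below 0.05, against 38.1% of all 12396 genes tested (19.9% up and 18.2% down). The share called, 5 of 10, was therefore near the background. The groups did not overlap for the same 5 genes, against 45.7% of all genes. Leaving out UK5099 library 3 gave 4 up and 4 down.

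Atf4 measured 270.9, 323.9 and 338.7 CPM in vehicle libraries 1 to 3, and 224.6, 243.2 and 270.9 CPM with UK5099. The drug group was lower, but only just separated, since its highest library and the lowest of vehicle both rounded to 270.9 CPM. The log2 fold change was -0.33 ± 0.09 (SE, limma adjusted p = 0.0147). It no longer passed when vehicle library 2 (-0.30, adjusted p = 0.061) or vehicle library 3 (-0.27, adjusted p = 0.067) was left out. Within same-numbered libraries the level with UK5099 was 0.829, 0.751 and 0.800 times that of vehicle.

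Ddit3 codes for CHOP, a C/EBP-family factor induced by ATF4 that pairs with it and is known for its role in stress-induced cell death. It measured 13.9, 16.1 and 16.5 CPM in vehicle and 4.83, 7.98 and 10.5 CPM with UK5099. The groups were well apart, and library 1 was the lowest of both. The log2 fold change was -1.01 ± 0.21 (limma adjusted p = 0.0045).

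Chac1, an enzyme that breaks down glutathione, and Trib3, a pseudokinase that restrains ATF4 and CHOP, are textbook targets of the pathway. Chac1 measured 8.43, 7.96 and 9.07 CPM in vehicle and 6.46, 3.46 and 3.15 CPM with UK5099 (log2 fold change -0.95 ± 0.22, limma adjusted p = 0.0066). Trib3 measured 15.6, 16.6 and 16.7 CPM in vehicle and 12.4, 7.12 and 5.46 CPM with UK5099 (log2 fold change -1.01 ± 0.23, limma adjusted p = 0.0061). For both genes each UK5099 library was below every vehicle library, and library 1 was the closest to vehicle, the opposite of its place for Ddit3. Without UK5099 library 1 the log2 fold changes were -1.24 for Chac1 and -1.32 for Trib3.

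Asns, the synthetase that makes asparagine from aspartate and glutamine, measured 55.2, 37.5 and 37.2 CPM in vehicle and 145.5, 47.8 and 43.8 CPM with UK5099. The groups overlapped, because vehicle library 1 was above UK5099 libraries 2 and 3. The log2 fold change of 0.66 ± 0.38 did not pass (limma adjusted p = 0.20), and it came to 0.10 without UK5099 library 1. With the replicate number as a block, a pairing read from these same values, it passed in the 6 libraries of the comparison (adjusted p = 0.039), though not in all 9. Asns, Chac1 and Trib3 are the genes whose promoters are shown above, and they did not move as one.

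Phgdh, Psat1 and Psph make up serine synthesis, and only the middle step passed. Psat1, the transaminase, measured 77.3, 64.5 and 67.1 CPM in vehicle and 190.5, 148.9 and 143.7 CPM with UK5099. Each drug library was well above each vehicle library (log2 fold change 1.20 ± 0.11, limma adjusted p = 2.3e-05), and the ratio within same-numbered libraries was 2.46, 2.31 and 2.14. Without UK5099 library 1 the log2 fold change was 1.07.

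Phgdh, the dehydrogenase that opens the pathway, measured 6.16, 4.45 and 3.51 CPM in vehicle and 16.5, 7.46 and 5.46 CPM with UK5099. Every UK5099 library was above the vehicle library of its number, by 2.67, 1.68 and 1.55 times, although the groups overlapped. The log2 fold change of 0.87 ± 0.33 did not pass (limma adjusted p = 0.065). With the block it did (adjusted p = 0.029 in 9 libraries and 0.0087 in 6), and it also did without UK5099 library 3 (log2 fold change 1.19, adjusted p = 0.0142), while without UK5099 library 1 it was 0.43. Psph, the phosphatase that releases serine, measured 14.2, 13.1 and 11.6 CPM in vehicle and 31.0, 16.6 and 12.9 CPM with UK5099, with overlap. Its log2 fold change was 0.53 ± 0.25 (limma adjusted p = 0.13), 0.17 without UK5099 library 1, and 0.79 without UK5099 library 3 (adjusted p = 0.0193).

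The mitochondrial enzymes that take up serine carbon did not pass. Shmt2, which splits serine into glycine and a folate-bound carbon, measured 99.1, 105.3 and 106.8 CPM in vehicle and 117.6, 125.8 and 94.96 CPM with UK5099 (log2 fold change 0.11 ± 0.09, limma adjusted p = 0.37), and it passed only without UK5099 library 3 (0.23, adjusted p = 0.0109). Mthfd2, which oxidizes that carbon, measured 31.9, 23.7 and 29.6 CPM in vehicle and 50.6, 20.4 and 17.3 CPM with UK5099. Library 1 was above all vehicle libraries and libraries 2 and 3 were below them, so that the log2 fold change of -0.10 ± 0.32 (limma adjusted p = 0.83) averaged opposite values. Without UK5099 library 1 it was -0.57 (adjusted p = 0.0020), and without library 2 or 3 it was 0.08 or 0.19.

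**Figure D2:**
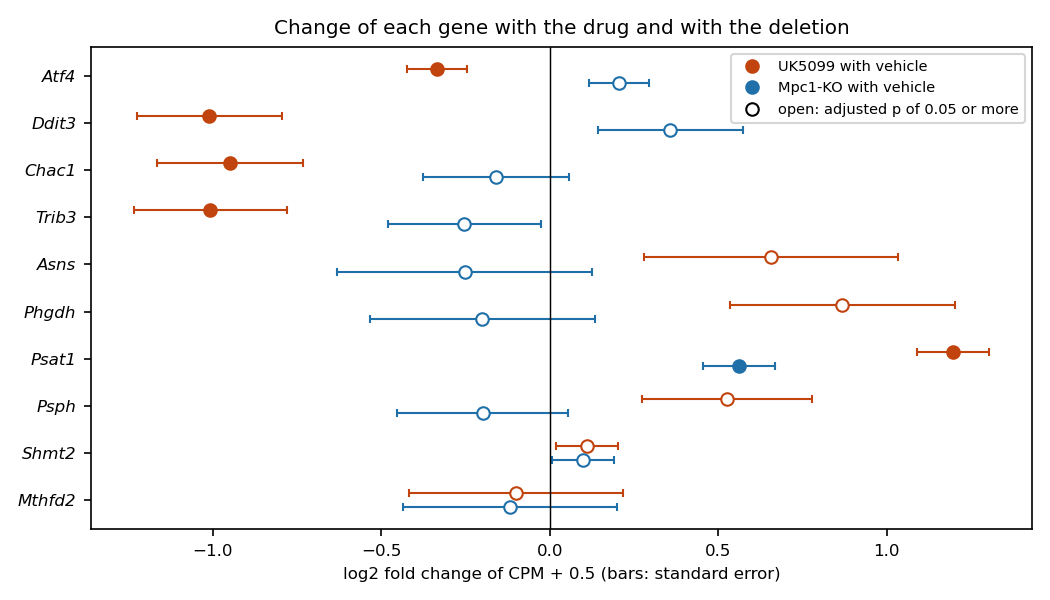
Change of each of the 10 genes as log2 fold change of CPM + 0.5, with UK5099 (orange) and with Mpc1 deletion (blue) against vehicle. Bars are standard errors of the limma fit, n = 3 libraries a group, and filled points passed an adjusted p of 0.05. Psat1 is the only filled point to the right of 0, at 1.20 and 0.56, and the 4 filled points to the left all belong to the drug.

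The spread among the UK5099 libraries was itself patterned. UK5099 library 1 held 3.18 times the mean of libraries 2 and 3 for Asns, 2.68 times for Mthfd2, 2.55 times for Phgdh, 2.11 times for Psph, 1.97 times for Trib3, 1.95 times for Chac1 and 1.30 times for Psat1. It held less for Ddit3 (0.523 times) and Atf4 (0.874 times). Shmt2 was near even (1.06 times). Vehicle library 1 leaned the same way for some of the genes, at 1.55 times the mean of vehicle 2 and 3 for Phgdh, 1.48 for Asns, 1.20 for Mthfd2, 1.18 for Psat1, 1.15 for Psph, 0.854 for Ddit3 and 0.818 for Atf4, the last a larger gap than with UK5099. It did not do so for Chac1 (0.990), Trib3 (0.934) or Shmt2 (0.935). Mpc1-KO library 1 stayed between 0.856 and 1.10 for all 10 genes. UK5099 library 1 was the highest of all 9 libraries for 5 of the 10 genes, which compares with 37.9% of all genes, so this library stood apart well beyond these genes. Among 20 cytosolic tRNA synthetases, which load tRNAs with amino acids and many of which ATF4 induces, it was the highest of 9 for 15, among 19 other serine, glycine and one-carbon genes for 14, and among 17 genes acting on eIF2 for 12. Among 20 other partners and targets of ATF4 it was the highest for 8 and the lowest for 5, and among 23 genes of the endoplasmic reticulum stress response the highest for 6 and the lowest for 6. These counts use unscaled CPM. UK5099 library 1 had the largest scaling factor, 1.08 by TMM (trimmed mean of M values) and 1.09 by median-of-ratios, so scaling would lower its levels. In the other libraries the factors were 0.977 to 1.02. The counts were not repeated after scaling. This reading of library 1 was chosen after its values were seen, and its cause was not tested.

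**Figure D3:**
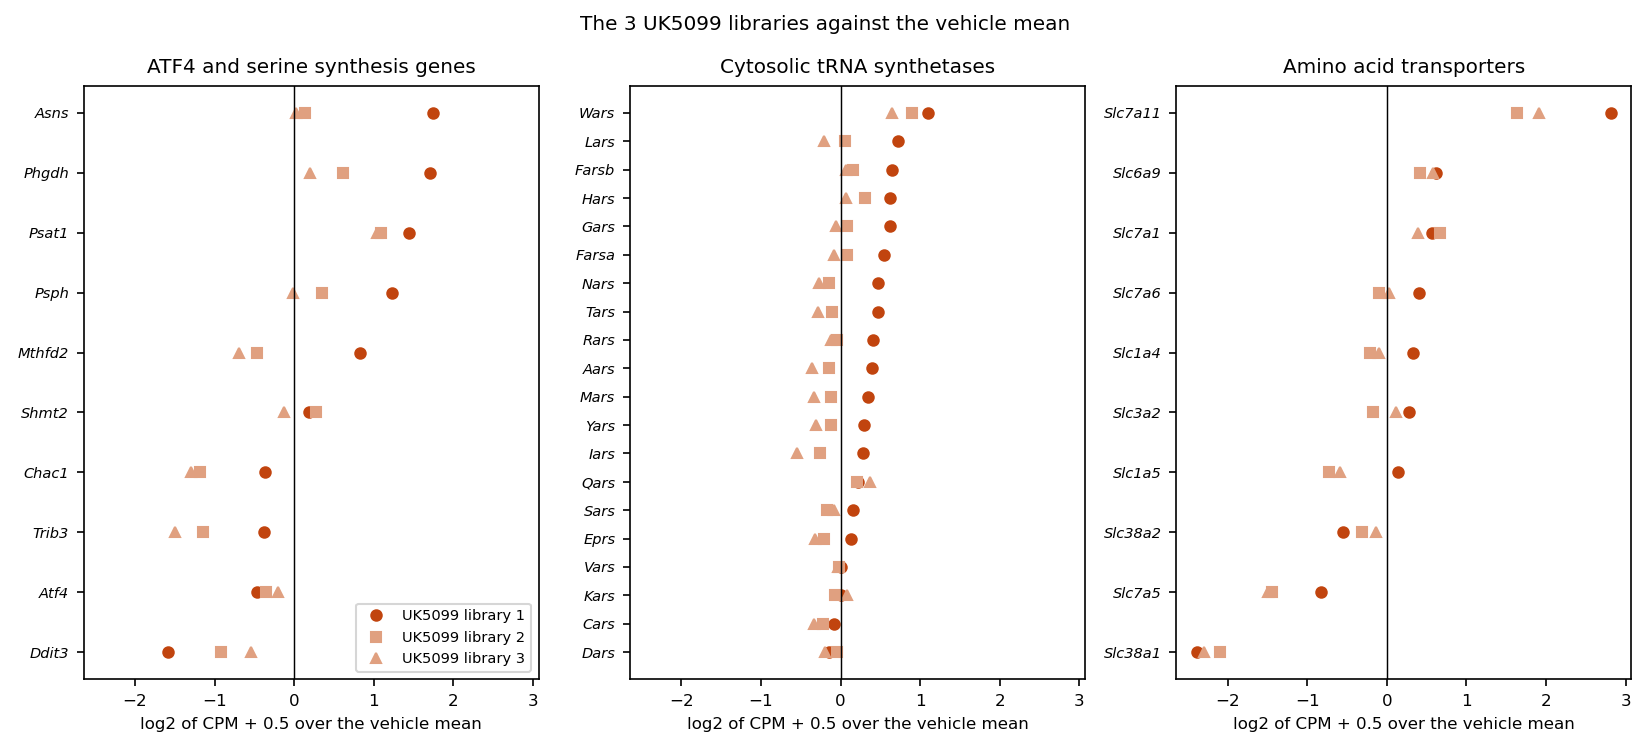
Level in each UK5099 library relative to the vehicle mean (log2 of CPM + 0.5 over that of the mean, 0 meaning equal) for the 10 genes, 20 cytosolic tRNA synthetases and 10 amino acid transporters, sorted by library 1. Library 1 (dark circles) lies to the right of libraries 2 and 3 (pale squares and triangles) for 7 of the 10 genes, 17 of the 20 synthetases and 7 of the 10 transporters, against 57.8% of all genes.

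Over all 9 libraries the genes fell into sets that moved together, given here as a description (Pearson's r of log2 values, n = 9 libraries, which share their groups). Phgdh, Psph and Asns followed each other closely (r = 0.96 to 0.98), as did Chac1 with Trib3 (r = 0.97) and Atf4 with Ddit3 (r = 0.95). Atf4 ran against Phgdh (r = -0.90) and Psph (r = -0.85). Within groups, as deviations from the group mean, Ddit3 ran against Psph (r = -0.98), Asns (r = -0.95), Trib3 (r = -0.94) and Chac1 (r = -0.90), although Ddit3, Trib3 and Chac1 all fell with the drug. UK5099 library 1 stood at log2 1.71, 1.23 and 1.74 over the vehicle mean for Phgdh, Psph and Asns. Library 2 of that group stood at 0.61, 0.34 and 0.14. Values of r, within groups as well, can rest largely on such a library, and they were not computed without it.

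The genes most like Atf4 among 10172 others that averaged 5 CPM or more were Herpud1 (r = 0.988), a gene of endoplasmic reticulum degradation, and Lonrf1, Ssh1, Fgd6 and Arfgap3 (r = 0.984 to 0.986). Herpud1 measured 150 CPM in vehicle, 125 CPM with UK5099 and 164 CPM in Mpc1-KO. Those most like Phgdh were Psmd9 (r = 0.991), a proteasome assembly factor, and Ints8, Rrs1, Utp25 and Sephs1 (r = 0.985 to 0.989). All 5 had their highest UK5099 level in library 1, such as 14.6 CPM against 8.72 and 7.94 CPM for Utp25.

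The second comparison asked the same of deletion. In Mpc1-KO organoids 1 of the 10 genes rose and 0 fell by limma (2 and 0 at an unadjusted p below 0.05), against 10.7% of all genes called (5.64% up and 5.03% down). The groups did not overlap for 5 of 10, namely Atf4, Ddit3, Psat1 and Shmt2, which were higher, and Trib3, which was lower, against 49.7% of all genes. Psat1 measured 107.7, 99.2 and 101.0 CPM, all above the 64.5 to 77.3 CPM of vehicle (log2 fold change 0.56 ± 0.11, limma adjusted p = 0.0125). Leaving out vehicle library 2 ended the call (adjusted p = 0.060), as did leaving out vehicle library 3 (0.058), Mpc1-KO library 1 (0.069) or Mpc1-KO library 3 (0.055), with log2 fold changes of 0.51 to 0.57.

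Atf4 measured 359.7, 351.1 and 360.8 CPM in Mpc1-KO, above all vehicle libraries, and its log2 fold change of 0.21 ± 0.09 did not pass (limma adjusted p = 0.17). Ddit3 measured 20.2, 19.4 and 20.2 CPM, again above all of vehicle (0.36 ± 0.21, adjusted p = 0.31). Trib3 measured 14.2, 14.0 and 12.6 CPM, below all of vehicle (-0.25 ± 0.23, adjusted p = 0.51). These SEs are shared with the wider UK5099 libraries. When these 6 libraries were fitted by themselves, Atf4 (adjusted p = 0.040), Ddit3 (0.0060), Psat1 (1.5e-04) and Trib3 (0.028) passed, 3 up and 1 down, with 35.5% of all genes called. Without UK5099 library 1, Ddit3 passed as well (adjusted p = 0.027).

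The remaining genes stayed close to vehicle in Mpc1-KO organoids. Phgdh measured 3.72 to 4.09 CPM and Psph 11.8, 10.9 and 10.8 CPM, with log2 fold changes of -0.20 ± 0.33 (limma adjusted p = 0.74) and -0.20 ± 0.25 (0.66). Asns measured 37.9, 36.7 and 32.5 CPM (-0.25 ± 0.38, adjusted p = 0.71), near vehicle libraries 2 and 3 and under vehicle library 1. Chac1 (6.79, 8.04 and 7.81 CPM), Mthfd2 (25.3, 25.7 and 26.7 CPM) and Shmt2 (113.5, 108.7 and 110.8 CPM) had log2 fold changes of -0.16, -0.12 and 0.10, with adjusted p from 0.53 to 0.85. These intervals are wide for Asns, Phgdh and Mthfd2, so a change of moderate size was not detectable.

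The third comparison set deletion directly against the drug, which tests whether their effects differ. The difference is taken between the UK5099 and Mpc1-KO libraries, while its SE also rests on the spread of the vehicle libraries in the same fit. Of the 10 genes, 4 were higher and 3 lower in Mpc1-KO than with UK5099, against 44.4% of all genes called (21.1% up and 23.2% down). The groups did not overlap for 8 of 10, against 54.9% of all genes. The count of 7 fell to 4 without UK5099 library 2, Mpc1-KO library 1 or Mpc1-KO library 3, and to 3 without Mpc1-KO library 2, and it was 6 without any 1 vehicle library and 5 in the 6 libraries alone. Atf4 was higher in Mpc1-KO by 0.54 ± 0.09 on the log2 scale (limma adjusted p = 0.0011) and Ddit3 by 1.37 ± 0.21 (7.7e-04), with every Mpc1-KO library above every UK5099 library. Psat1, raised in both groups, was lower in Mpc1-KO than with the drug (log2 fold change -0.64 ± 0.11, adjusted p = 0.0012).

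Chac1 (0.79 ± 0.22, limma adjusted p = 0.0149) and Trib3 (0.75 ± 0.23, adjusted p = 0.0226) were also higher in Mpc1-KO. The Chac1 call was lost without UK5099 library 2 (adjusted p = 0.0536), Mpc1-KO library 2 (0.0543) or Mpc1-KO library 3 (0.0516). The Trib3 call was lost without UK5099 library 2 (0.0689), UK5099 library 3 (0.0522), Mpc1-KO library 1 (0.0691) or Mpc1-KO library 2 (0.0672), and in the 6 libraries alone (0.0544). Phgdh was lower (-1.07 ± 0.33, adjusted p = 0.0259), a call lost on leaving out any Mpc1-KO library (0.064 to 0.074) or with no filter on low genes (0.0566). Psph was lower (-0.72 ± 0.25, adjusted p = 0.0409), a call lost without any vehicle library, any Mpc1-KO library or UK5099 library 2 (0.053 to 0.105), in the 6 libraries alone (0.0781), with no filter (0.0802) and without the trend (0.0575). Asns did not pass (-0.91 ± 0.38, adjusted p = 0.075), though it did without UK5099 library 3 (0.0269). Shmt2 and Mthfd2 differed by -0.01 ± 0.09 and -0.02 ± 0.32, and Mthfd2 was higher in Mpc1-KO by 0.45 (adjusted p = 0.0081) once UK5099 library 1 was left out.

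Reads of 50 bases can fit more than 1 gene, so the longest coding transcript of each gene was compared with all other transcripts in GENCODE M21. Matches in either orientation were counted, and the strand of a match was not kept. For Phgdh, 63.1% of its 1844 windows of 50 bases also occur in transcripts of 23 other genes, mostly processed pseudogenes, and Gm7901 alone shares 50.6% of them. None of those in the table passed 0.209 CPM in any library, but the treatment of reads with several matches was not stated in the labels or methods, so the level of Phgdh is uncertain. For Psph, 23.9% of windows match a transcript of Cct6a, a chaperonin gene at 192 to 264 CPM. As the libraries were stranded, windows that match only the opposite strand need not be ambiguous, so these shares can overstate the ambiguity. The share was 2.26% for Ddit3, 1.83% for Shmt2 and 1.21% for Psat1, and 0 for Atf4, Asns, Mthfd2, Chac1 and Trib3.

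**Figure D4:**
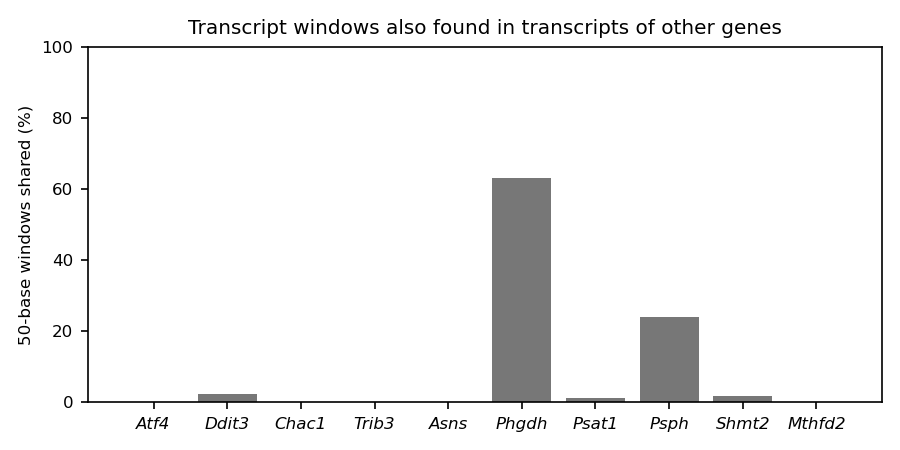
Share of the 50-base windows of the longest coding transcript of each gene that also occur, in either orientation, in a transcript of another gene (percent, axis from 0 to 100). Phgdh stands at 63.1% and Psph at 23.9%, and the other 8 genes are at 2.26% or less.

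Of 19 tested genes of serine, glycine, cysteine and one-carbon metabolism outside the 10, 6 rose and 0 fell with UK5099, against 19.9% up and 18.2% down over all genes (median log2 fold change 0.31, against 0.04). Gldc, a subunit of the glycine cleavage system, measured 8.52, 8.07 and 8.36 CPM in vehicle and 14.8, 13.5 and 11.7 CPM with UK5099 (0.64, limma adjusted p = 0.0027). Mthfd1, the cytosolic folate enzyme, rose by 0.77 (adjusted p = 0.0033) and Tyms, which makes thymidylate, by 0.69 (adjusted p = 0.0075). The list held 3 genes up without vehicle library 2 or 3, and 10 up without UK5099 library 3. In Mpc1-KO 0 of the 19 passed by limma (2 up and 2 down when p was left unadjusted, median 0.07), and 2 rose and 2 fell in the 6 libraries alone or without UK5099 library 1. Over all genes 10.7% were called in Mpc1-KO, and 35.5% in the 6 libraries alone. Proliferation genes moved in both groups, with 13 of 14 up with UK5099 (median 0.75) and 9 of 14 up in Mpc1-KO (median 0.73), among them Mki67 (0.89 and 1.08) and Top2a (0.75 and 0.94), and the part of this in the levels of Tyms and the folate genes was not tested.

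Of 10 tested amino acid transporters 3 rose and 2 fell with UK5099 (median 0.04), a share near the 38.1% of all genes called. Slc7a11, the cystine importer and a known ATF4 target, measured 142, 105 and 106 CPM in vehicle, 828, 368 and 444 CPM with UK5099, and 197, 189 and 207 CPM in Mpc1-KO. It rose with the drug by 2.13 ± 0.25 (limma adjusted p = 1.1e-04), most in library 1. Slc38a1, a glutamine carrier, fell by 2.25 ± 0.15 (adjusted p = 3.3e-06) and Slc7a5, the leucine carrier, by 1.25 ± 0.15 (adjusted p = 1.1e-04). In Mpc1-KO, 1 rose and 1 fell (median 0.23), Slc6a9, a glycine carrier (0.39, adjusted p = 0.0075, lost without Mpc1-KO library 1 at 0.0504), and Slc38a1 (-0.99, adjusted p = 0.0047). Leaving out UK5099 library 1 or fitting the 6 libraries alone gave 5 up and 1 down, and leaving out UK5099 library 2 gave 3 up and 1 down. Over all genes 10.7% were called in Mpc1-KO, and 35.5% in the 6 libraries alone.

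Among the 20 cytosolic tRNA synthetases, 2 rose and 1 fell with UK5099 (median 0.01), against 38.1% of all genes called. Wars, which charges tryptophan, rose by 0.88 ± 0.11 (limma adjusted p = 2.1e-04), Qars by 0.27 (adjusted p = 0.0051), and Cars fell by 0.21 (adjusted p = 0.0345), a call lost on leaving out any library other than UK5099 library 1. Without UK5099 library 1 the count became 2 up and 8 down. Aars, which charges alanine, shows the split, at 180, 155 and 153 CPM in vehicle and 214, 148 and 127 CPM with UK5099, and was chosen after its values were seen. In Mpc1-KO only Vars passed (0.24, adjusted p = 0.0115, lost without vehicle library 3, Mpc1-KO library 1 or Mpc1-KO library 3 at 0.051 to 0.073), against 10.7% of all genes called. The count was 2 up and 2 down without UK5099 library 1 and 2 up without UK5099 library 3. In the 6 libraries alone it was 3 up and 3 down, where 35.5% of all genes were called.

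Of the 17 genes that act on eIF2 upstream of ATF4, 3 rose and 2 fell with UK5099 (median 0.17, against 38.1% of all genes called), and 0 passed in Mpc1-KO by limma (1 up and 3 down when p was left unadjusted, median 0.05). With UK5099 the count was 1 up and 2 down without vehicle library 3, and in Mpc1-KO it was 3 up and 4 down in the 6 libraries alone and 1 up and 3 down without UK5099 library 1. Over all genes 10.7% were called in Mpc1-KO, and 35.5% in the 6 libraries alone. Eif2ak3, the kinase PERK of the endoplasmic reticulum, measured 64.3, 65.5 and 63.0 CPM in vehicle and 41.9, 39.7 and 48.5 CPM with UK5099, and fell by 0.57 ± 0.07 (limma adjusted p = 2.2e-04). Eif2ak4, the kinase GCN2 that senses uncharged tRNA, fell by 0.29 (adjusted p = 0.0101), and Eif2b4, a subunit of the exchange factor, rose by 0.50 (adjusted p = 0.0071). In Mpc1-KO organoids Eif2ak3 measured 69.7, 70.5 and 70.1 CPM, above every library of both other groups.

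Of 20 other tested partners and targets of ATF4, 5 rose and 5 fell with UK5099 (median -0.03), against 19.9% up and 18.2% down over all genes. Gpt2, a mitochondrial transaminase that makes alanine from pyruvate, measured 41.5, 40.1 and 43.1 CPM in vehicle and 78.5, 78.2 and 79.2 CPM with UK5099, and rose by 0.91 (limma adjusted p = 3.6e-06). Its UK5099 libraries agreed closely, unlike those of Asns or Phgdh. Cebpb, a C/EBP factor, rose by 0.61 (adjusted p = 9.0e-05), and Stc2, a secreted stress protein, fell by 1.41 (adjusted p = 4.1e-04). Atf3, a stress-induced relative of ATF4 named here after its values were seen, measured 447, 425 and 413 CPM in vehicle, 88.6, 210 and 190 CPM with UK5099, and 307, 276 and 247 CPM in Mpc1-KO. The list held 5 up and 9 down without UK5099 library 1, and 2 up and 4 down without vehicle library 2. In Mpc1-KO only Ddit4, an inhibitor of mTORC1, passed (0.47, adjusted p = 0.0129, lost without vehicle library 2 or 3 or Mpc1-KO library 1 or 3 at 0.059 to 0.065), against 10.7% of all genes called. The count was 7 up and 3 down in the 6 libraries alone, where 35.5% of all genes were called, and 5 and 3 without UK5099 library 1.

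The endoplasmic reticulum stress response was followed in 23 genes, a list that does not hold PERK (Eif2ak3) itself. With the drug 0 rose and 9 fell, against 19.9% and 18.2% of all genes (2 and 12 when p was left unadjusted, median -0.14). Pdia6 (-0.33, limma adjusted p = 6.8e-04), Ern1 (-0.62, adjusted p = 8.3e-04) and Hsp90b1 (-0.29, adjusted p = 0.0015), which are a disulfide isomerase, the sensor IRE1 and a chaperone, were among them. The count was 6 down without vehicle library 3, and 2 up and 12 down without UK5099 library 3. In Mpc1-KO, 3 rose and 1 fell (median 0.13), Hspa5 (0.24, adjusted p = 0.0178), Xbp1 (0.25, 0.0232) and Hsp90b1 (0.22, 0.0282) being up and Sel1l down (-0.25, 0.0313). None of the 4 passed on leaving out any vehicle or any Mpc1-KO library, while 11 rose and 2 fell in the 6 libraries alone, 10 and 2 there with the block, and 6 and 2 without UK5099 library 1. Over all genes 10.7% were called in Mpc1-KO, and 35.5% in the 6 libraries alone. Set directly against the drug, 17 of 23 were higher and 3 lower in Mpc1-KO, against 21.1% and 23.2% of all genes, led by Hsp90b1 (0.51, adjusted p = 5.7e-05), Hspa5 (0.42, 1.3e-04) and Pdia6 (0.41, 2.1e-04). Of 12 chaperones and proteases of mitochondria, 0 rose and 2 fell with UK5099 (median 0.05, against 38.1% of all genes called), Htra2 (-0.36, adjusted p = 0.0212) and Lonp1 (-0.29, adjusted p = 0.0253). The count was 1 up and 4 down without UK5099 library 1 or with TMM scaling, 1 up and 3 down with median-of-ratios scaling, and 0 in the 6 libraries alone. Neither passed without vehicle library 2 or 3, Htra2 also not without UK5099 library 2 or 3, and Lonp1 also not without vehicle library 1. In Mpc1-KO 0 of 12 passed by limma (3 up and 0 down when p was left unadjusted), and 4 rose and 1 fell in the 6 libraries alone, where 35.5% of all genes were called, or 3 and 0 without UK5099 library 1.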

How the data were processed

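The titles of the samples placed the 9 RNA-seq libraries in 3 groups. The authors made stranded mRNA libraries, aligned single-end reads of 50 bases to GRCm39 with STAR (version 2.7.9a, from the submitters' processing notes), and deposited CPM values to which 0.0001 had been added. That 0.0001 was subtracted. Since 99.9% of values or more lay within 0.02 of whole reads, depth was taken from the smallest step. The authors' own differential test, made with DESeq2, was not repeated.

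For genes averaging 1 CPM or more, limma 3.58.1 in R 4.3.3 was run on log2(CPM + 0.5) values (mean-variance trend, 9 libraries in 1 fit, 6 residual degrees of freedom, prior 3.88). P-values are two-sided with Benjamini-Hochberg adjustment over all genes tested, and fold changes are on the log2(CPM + 0.5) scale, which understates low genes. The procedure was tested on simulated data in which all groups had the same spread. That test does not show how the shared fit behaves with the wider spread of the UK5099 libraries. A difference of effects was tested as Mpc1-KO against UK5099. The members, gene lists and tests were chosen with earlier results of these data known. Named list genes are up to 3 with the smallest p in each list, and genes named otherwise are marked.

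Replicate numbers were checked by correlating deviations from group means. Same-numbered vehicle and UK5099 libraries gave 0.44, 0.14 and 0.31, all above 0.1, and were taken as paired for a fit with the number as a block. Unmatched libraries also passed 0.1, vehicle 2 with UK5099 3 at 0.26 and vehicle 3 with UK5099 2 at 0.13. The cut therefore does not set matched libraries apart. The block was fitted to the same values, so calls made with it do not test the pairing. Those with Mpc1-KO gave -0.12 to 0.12. Alternatives were other pseudocounts, filters and scalings, no trend, the 6 libraries of a comparison, the block, and each library left out. A nameless entry (0.000715% of reads or less) was not tested, and 24 symbols turned into numbers could not be named. The values of 1 immune marker are not reported here.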

Additional observations from a re-analysis of the deposited data

Results flagged for a closer look

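The effects of drug and deletion on 7 of the 10 genes differed by the test of Mpc1-KO against UK5099 (limma, adjusted p below 0.05), and each is given as Mpc1-KO minus UK5099 on the log2 scale. Atf4 (0.54), Ddit3 (1.37), Chac1 (0.79) and Trib3 (0.75) were higher in Mpc1-KO. Phgdh (-1.07), Psat1 (-0.64) and Psph (-0.72) were lower. Against vehicle, Atf4 and Ddit3 lay below with the drug and above with deletion, Phgdh and Psph above with the drug and below with deletion, and Psat1 above in both, though the drug effects on Phgdh (adjusted p = 0.065) and Psph (0.13) did not pass and their groups overlapped. Of the deletion effects only that on Psat1 passed in the fit of all 9 libraries. As 44.4% of all genes passed the same test, such a difference is common in these libraries.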

How the results depend on the processing

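Of 570 values of the 10 genes under alternatives, 515 kept their direction and side of the threshold, 28 no longer passed, 17 newly passed and 10 reversed. The genes called in Mpc1-KO against vehicle numbered 1323, and 761 with no filter on low genes, 4399 in the 6 libraries alone and 309 to 3593 on leaving out a library. Of the 10 genes 1 was called there, 4 in the 6 libraries alone, and 0 to 2 on leaving out a library. With UK5099 against vehicle, leaving out a library gave 3439 to 5683 genes (4721 in all libraries) and 4 to 8 of the 10, and with Mpc1-KO against UK5099 it gave 4004 to 6205 genes (5498) and 3 to 8 of the 10. With the replicate block the counts were 4922, 1399 and 5765 genes and 6, 1 and 8 of the 10, and in the 6 libraries of each comparison 4447, 4146 and 3916 genes and 7, 4 and 8 of the 10. In the block of 6 libraries Asns passed with UK5099 (adjusted p = 0.039), and Phgdh in both blocks, and Asns passed between Mpc1-KO and UK5099 with the block (0.0215), where the numbers did not pair the libraries. The block changed no other call of the 10 genes in 9 libraries. Reversed values were all near 0 or turned on a UK5099 library. Mthfd2 with UK5099 gave 0.08 without UK5099 replicate 2 and 0.19 without replicate 3, its range on leaving out a library being -0.57 to 0.19. Between Mpc1-KO and UK5099, Mthfd2 gave 0.023 with TMM, 0.025 with median-of-ratios scaling and 0.45 without UK5099 replicate 1 (range on leaving out a library -0.31 to 0.45), and Shmt2 gave 0.029 and 0.031 with these scalings, 0.022 and 0.071 without UK5099 replicate 1 or 2, and 0.0019 without Mpc1-KO replicate 2 (range -0.13 to 0.071). Both scalings turn the split of calls in Mpc1-KO against vehicle from 699 up and 624 down to 670 and 799 (TMM) or 606 and 804 (median-of-ratios). For 56 list gene results that passed, 986 of 1064 values still passed, 78 did not and 0 reversed. The planned count tests in edgeR and DESeq2 were not run. The cause of these differences was not tested. Counting error is relatively wide for low genes such as Chac1.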
